A study of Mus musculus with 9 samples.

Results

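The quadriceps femoris and the heart of sham-operated mice were compared over the whole transcriptome. The members are all 35745 RefSeq transcripts, carrying 24537 gene names, of the count table that joins 3 sham quadriceps and 3 sham heart libraries, 6 of the 9 libraries of the series. The mice were male C57Bl/6JCrl by the study's methods (C57Bl6 by the labels) and 8 weeks old at surgery by the labels, and tissue was taken 12 weeks after a sham operation, the control procedure for transverse aortic constriction. The labels list no transgene, allele or agent for either group. Each library holds RNA of a whole tissue, so fewer cells of a type and less RNA per cell cannot be told apart. Whether a heart and a quadriceps library of the same number came from 1 mouse is not given, and p-values measure the spread between the 3 libraries of each tissue.

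Heart and limb muscle are both striated. Each shortens when calcium, released from the sarcoplasmic reticulum, binds troponin and lets myosin pull on actin, but the main proteins of this machine come from separate genes in the cardiac, fast skeletal and slow skeletal versions. Cardiomyocytes are joined end to end at intercalated discs and beat without a nerve, and they run mainly on fatty acids burned in dense mitochondria. Skeletal fibers are long multinucleated cells, each driven by a motor nerve at a neuromuscular junction, and the quadriceps of the mouse is built mostly of fast glycolytic fibers.

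Library totals ran from 33102826 to 38382751 counts in the heart and from 23383452 to 32989108 in the quadriceps. The 24280 transcripts that exceeded 5 counts in 2 or more libraries were tested. Of these, 3881 (16.0%) were higher and 4983 (20.5%) lower in quadriceps than in heart, at an adjusted p under 0.05 and a log2 difference beyond 1, which is what higher and lower mean for a single gene below. With the most abundant transcript standing for each gene, 2436 (16.3%) of 14906 genes were higher and 3073 (20.6%) were lower. These shares of all genes are the background for the counts of each list below. Of the higher genes 254 had 3 counts or fewer in every heart library, and of the lower genes 533 had 3 or fewer in every quadriceps library. The filter left those genes 1 possible direction. The libraries of both tissues did not overlap for 71.7% of genes. A log2 difference beyond 5 separated 307 genes that were higher and 318 that were lower, while the 95% interval of 1626 genes lay within 0.5 of no difference. The median log2 difference of all genes was -0.05. Scaling by library totals in place of TMM moves the median of all tested transcripts to -0.80 and gives 1914 higher and 10173 lower transcripts, so list directions that turn with that scaling are named beside the list. Levels below are RPKM, counts scaled to the length of the transcript and to the TMM-scaled size of the library, and log2 differences are quadriceps over heart with their standard error. Where 1 tissue had no count at all, the fold is a lower bound against 3 counts over its libraries together. Where it had 3 counts or fewer in every library but not 0 in all, the ratio of scaled counts is given with its exact 95% interval, which covers counting error only. Such genes passed the filter through the other tissue alone, so they could be called in 1 direction only.

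**Figure D1:**
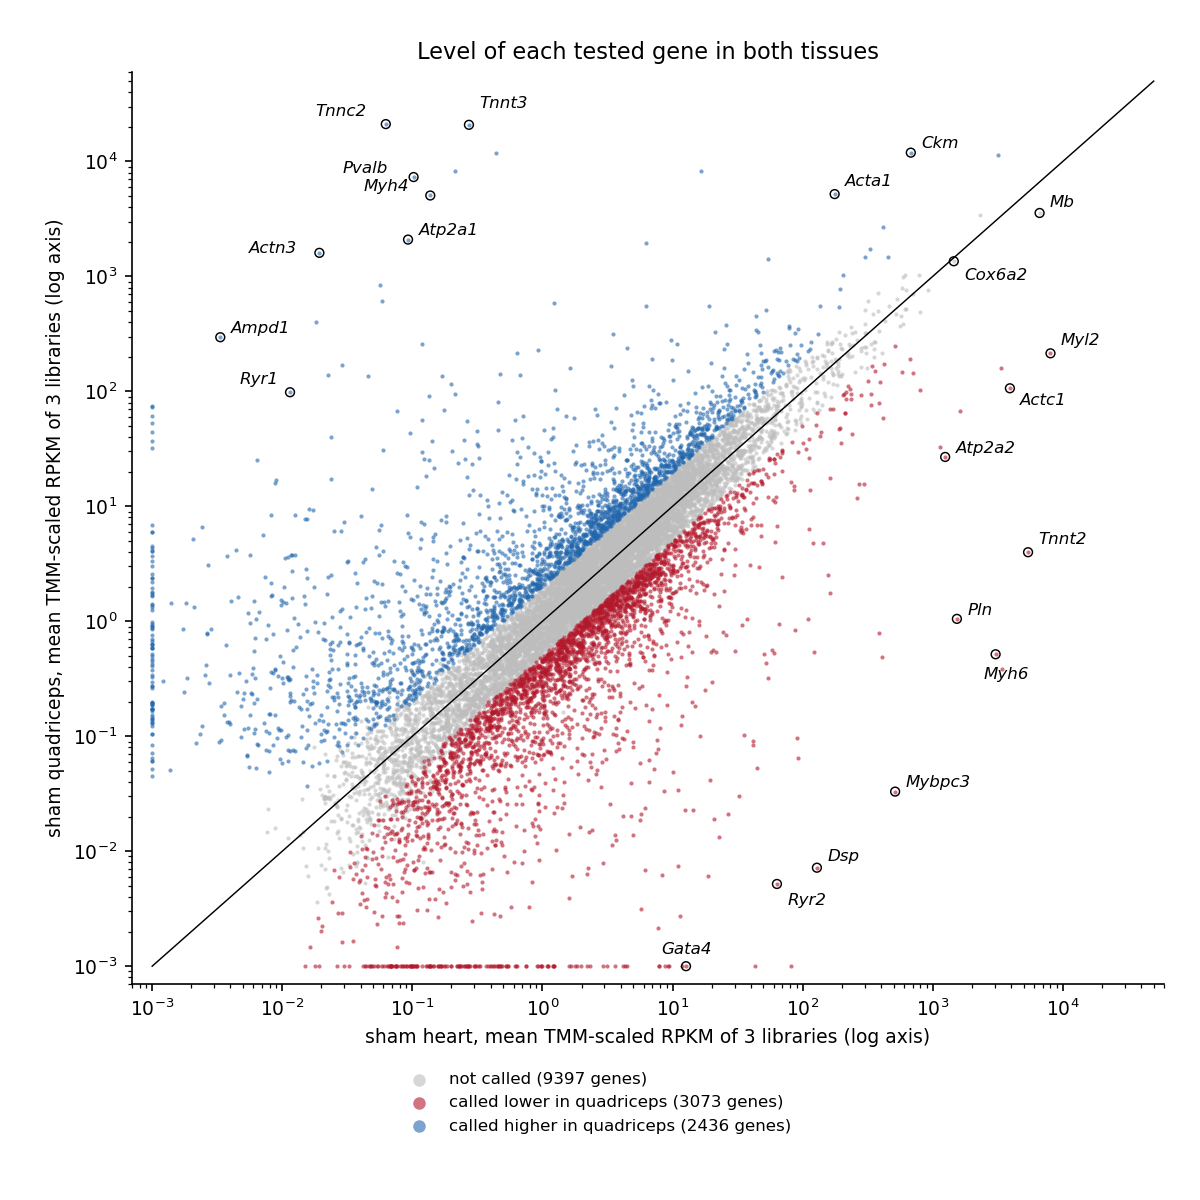
Mean level in quadriceps against mean level in heart for every tested gene, both on log10 RPKM axes, each point 1 gene. Higher and lower genes are coloured, genes without counts in 1 tissue sit at the edge of the axis, and the labelled contractile genes lie far from the diagonal in both directions while Mb and Cox6a2 lie near it.

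The markers fixed for each tissue matched the labels. Myh6 (NM_001164171, chr14:54941921-54966927) encodes the alpha heavy chain of cardiac myosin and stood at 3244, 2927 and 2965 RPKM in the heart libraries and 0.499, 0.498 and 0.552 RPKM in the quadriceps libraries (log2 difference -12.53 ± 0.17, adjusted p = 1.78e-09). Myh4 (NM_010855, chr11:67238029-67260446), the heavy chain of the fastest limb fibers, stood at 0.175, 0.113 and 0.124 RPKM in heart and 3432, 5063 and 6676 RPKM in quadriceps (log2 difference 15.16 ± 0.31, adjusted p = 7.16e-09). Each was high in all 3 libraries of its own tissue and near 0 in all 3 of the other. Positions are of GRCm38 by the GENCODE vM21 annotation.

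Promoter windows of 4 sarcomere genes are shown, a pair from each side, because the regulators described further on bind elements of this kind. Each window holds the 120 bases before the RefSeq transcription start (GRCm38.p6), 5′ to 3′ on the gene's strand. They lie at chr11:67237692-67237811 (+ strand) for Myh4, chr7:127211488-127211607 (+) for Mylpf, chr2:114052876-114052995 (- strand) for Actc1 and chr2:91118024-91118143 (+) for Mybpc3. Capitals mark matches to the searched motifs: TATAAA, the E-box CAGCTG, the CArG motif and the MEF2 motif. The motifs AGATAA and AAGGTCA were searched too and had no match in the 4 windows. The 4 genes were picked from the named genes without a further rule.
Myh4: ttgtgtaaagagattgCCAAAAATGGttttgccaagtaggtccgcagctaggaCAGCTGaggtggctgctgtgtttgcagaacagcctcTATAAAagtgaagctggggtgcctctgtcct
Mylpf: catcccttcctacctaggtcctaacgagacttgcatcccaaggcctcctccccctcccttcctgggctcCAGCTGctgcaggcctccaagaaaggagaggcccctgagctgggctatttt
Actc1: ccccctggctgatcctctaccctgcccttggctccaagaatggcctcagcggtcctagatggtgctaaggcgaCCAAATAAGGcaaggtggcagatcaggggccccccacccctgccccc
Mybpc3: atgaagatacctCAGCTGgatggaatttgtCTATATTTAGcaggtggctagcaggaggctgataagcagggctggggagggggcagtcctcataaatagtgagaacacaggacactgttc
In the Myh4 window the TATAAA match sits at positions -31 to -26 from the start, the E-box at -67 to -62 and the CArG match at -104 to -95. The Mylpf E-box lies at -51 to -46 and the Actc1 CArG match at -47 to -38, and Mybpc3 has the E-box at -108 to -103 and the MEF2 match at -90 to -81. Over all 32851 RefSeq promoter windows of 300 bases, searched on both strands, 13.6% held TATAAA, 16.3% the E-box, 3.19% the MEF2 motif and 1.63% the CArG motif. AGATAA was held by 11.2% and AAGGTCA by 4.72%. A match is a description of the letters and no evidence of a bound factor.

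Genes of the contractile apparatus separated the tissues widely. All 10 cardiac sarcomere genes were lower in quadriceps (median log2 difference -7.49, or -7.66 with the gene near 0 counts at its count ratio). The atrial light chains Myl7 and Myl4 among them rest on single libraries, and the list had 8 of 9 lower with a median of -5.26 without heart 1, 9 of 9 with -5.22 without heart 2, 8 of 10 without quadriceps 1, and 9 of 10 without quadriceps 2 or quadriceps 3. All 11 fast skeletal sarcomere genes were higher (median 14.69). The cardiac troponin genes T and I were close to 0 in the limb. Tnnt2, the troponin T that anchors the complex to tropomyosin, stood at 5521, 5168 and 5539 RPKM in heart and 4.71, 3.99 and 3.27 RPKM in quadriceps (log2 difference -10.39 ± 0.17, adjusted p = 1.97e-09). Tnni3, the inhibitory subunit, stood at 3422, 3323 and 3475 RPKM in heart and 0.542, 0.411 and 0.208 RPKM in quadriceps (log2 difference -13.01 ± 0.29, adjusted p = 1.78e-09). Tnnc1, the calcium-binding subunit that heart shares with slow fibers, kept 71.9, 70.2 and 59.4 RPKM in quadriceps against 1643, 1632 and 1633 RPKM in heart (log2 difference -4.61 ± 0.12, adjusted p = 7.65e-09).

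The fast troponins mirrored them and were among the most abundant transcripts of the limb. Tnnc2 (NM_009394, chr2:164777161-164779967) had counts of 2, 2 and 2 in heart and of 381067, 378268 and 239662 in quadriceps, where its level was 20483, 23118 and 19801 RPKM. The ratio of its scaled counts was 340859.7 (156603 to 928820.1), adjusted p = 1.78e-09. Tnnt3 stood at 0.349, 0.194 and 0.273 RPKM in heart and 18124, 24500.0 and 19876 RPKM in quadriceps (log2 difference 16.21 ± 0.30, adjusted p = 1.78e-09), and Tnni2 at 0.478, 0.513 and 0.318 against 11128, 13101 and 11000.3 RPKM (log2 difference 14.69 ± 0.25, adjusted p = 1.78e-09). No heart library came near any quadriceps library for these 3 genes.

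Myosin light chains and filament regulators divided in the same way. Myl2, the regulatory light chain of ventricle and slow fibers, was the most abundant transcript per length in heart at 7792, 8429 and 7917 RPKM and stood at 221, 201 and 221 RPKM in quadriceps (log2 difference -5.23 ± 0.13, adjusted p = 6.74e-09). Myl3, its essential partner, stood at 3321, 3369 and 3402 RPKM in heart and 163, 165 and 148 RPKM in quadriceps (log2 difference -4.41 ± 0.12, adjusted p = 1.05e-08). The fast light chain Mylpf, whose promoter is shown above, had 0.197, 0.187 and 0.250 RPKM in heart and 7652, 9175 and 7974 RPKM in quadriceps (log2 difference 15.23 ± 0.28, adjusted p = 1.78e-09). Quadriceps thus kept low but clear levels of the cardiac and slow chains, whereas the heart held next to none of the fast regulatory chain. The fast essential light chain Myl1 was also higher in quadriceps, at 7725, 9581 and 7568 RPKM against 20.2, 17.6 and 11.9 RPKM (log2 difference 8.97 ± 0.21, adjusted p = 1.18e-08). Mybpc3, the cardiac myosin-binding protein C, had 573, 509 and 462 RPKM in heart and 0.0447, 0.0406 and 0.0137 RPKM in quadriceps (log2 difference -13.80 ± 0.41, adjusted p = 1.78e-09). Its fast relative Mybpc2 had 7.05, 6.18 and 5.40 RPKM in heart and 417, 629 and 607 RPKM in quadriceps (log2 difference 6.47 ± 0.18, adjusted p = 2.03e-08). The slow relative Mybpc1 showed the wider gap, 0.0107, 0.0203 and 0.0238 RPKM against 398, 311 and 501 RPKM (log2 difference 14.37 ± 0.50, adjusted p = 2.49e-09).

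**Figure D2:**
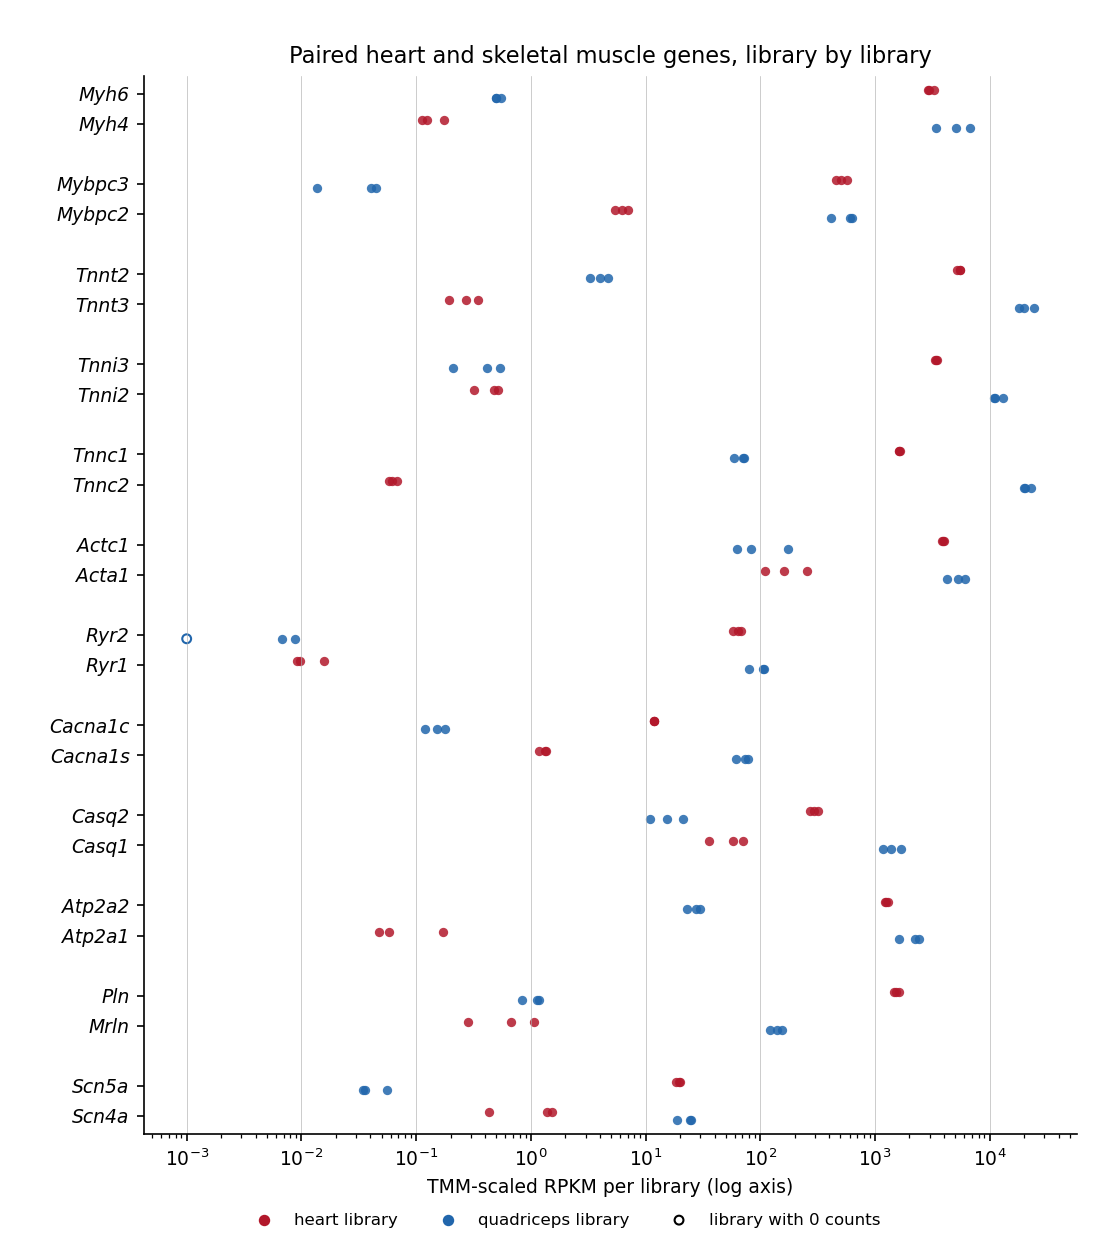
Level of cardiac and skeletal counterparts in each library, on a log10 RPKM axis, with filled points for single libraries and open circles for libraries with 0 counts. Each cardiac member (such as Myh6, Tnni3 or Ryr2) is high in the 3 heart libraries and each skeletal member (Myh4, Tnni2, Ryr1) in the 3 quadriceps libraries, with no overlap for the pairs shown.

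Sarcomeric actins were present in both tissues at levels that differed. Actc1, cardiac alpha-actin, stood at 3968, 3871 and 3927 RPKM in heart and 82.8, 174 and 62.6 RPKM in quadriceps (log2 difference -5.20 ± 0.32, adjusted p = 2.53e-06). Acta1, skeletal alpha-actin, stood at 162, 258 and 109 RPKM in heart and 4207, 6061 and 5333 RPKM in quadriceps (log2 difference 4.88 ± 0.29, adjusted p = 1.71e-06). The heart libraries therefore kept skeletal actin at a level that spread widely between them, and quadriceps 2 had more cardiac actin than the other quadriceps libraries. Reads shared between such near-identical genes (the actins, Myh1, Myh2 and Myh4) could be split either way by the counting, so their low values are uncertain. Alpha-actinin 3 (Actn3), a Z-disc crosslinker of fast fibers, had 0.0220, 0.0278 and 0.00813 RPKM in heart and 1126, 1905 and 1779.7 RPKM in quadriceps (log2 difference 16.22 ± 0.63, adjusted p = 3.73e-09).

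Fast heavy chains were the abundant ones in the sampled quadriceps. Myh1, the heavy chain of type IIx fibers, had 613, 487 and 720.3 RPKM in quadriceps and 0.0703, 0.0632 and 0.0429 RPKM in heart (log2 difference 13.31 ± 0.27, adjusted p = 2.22e-09), and Myh2, of type IIa fibers, had 243, 196 and 333 RPKM against 0.139, 0.115 and 0.104 RPKM (log2 difference 11.06 ± 0.25, adjusted p = 4.41e-09). Myh7, the slow and beta-cardiac heavy chain, was present in both tissues and lower in quadriceps, at 31.2, 56.6 and 52.5 RPKM against 194, 210.1 and 169.7 RPKM (log2 difference -2.03 ± 0.21, adjusted p = 3.14e-05). Among the quadriceps heavy chains the order per length was Myh4, Myh1, Myh2 and Myh7, with no overlap between neighbours in the 3 libraries. Of the 6 slow skeletal sarcomere genes, 4 were higher in quadriceps and 2 lower, Myh7 and Myh7b. Tnnt1, slow troponin T, stood at 14.0, 14.0 and 11.6 RPKM in heart and 129, 179 and 145 RPKM in quadriceps (log2 difference 3.51 ± 0.14, adjusted p = 8.95e-08), and Tnni1, slow troponin I, at 0.117, 0.166 and 0.0867 and 24.3, 29.3 and 24.4 RPKM (log2 difference 7.66 ± 0.28, adjusted p = 3.87e-09). Both lower members encode heavy chains, and neither was near 0 in the heart libraries.

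Tropomyosin 1 was among the most abundant transcripts of both tissues. Tpm1, which blocks myosin sites on actin at rest, stood at 3167, 3109.5 and 3314 RPKM in heart and 9744, 12987 and 11295 RPKM in quadriceps (log2 difference 1.83 ± 0.16, adjusted p = 1.04e-05). Of the 28 Z-disc, titin and M-band genes, 13 were higher and 6 lower, with a median log2 difference of 0.78 (0.02 and 9 higher with library totals). Calsarcin-2 (Myoz1) had 0.0327, 0.0464 and 0.0905 RPKM in heart and 729.5, 969 and 824 RPKM in quadriceps (log2 difference 13.82 ± 0.43, adjusted p = 1.78e-09). Myoz3, its fast-fiber relative, had no count in any heart library and 3147, 4027 and 2922 counts in quadriceps, at least 7031-fold higher (adjusted p = 6.93e-08). Nebulette (Nebl), the cardiac form of nebulin, had 14.2, 14.9 and 13.7 RPKM in heart and 0.0495, 0 and 0.0190 RPKM in quadriceps (log2 difference -9.12 ± 0.62, adjusted p = 1.18e-08). Telethonin (Tcap), which caps titin, was abundant in both and higher in quadriceps, 1653, 1910.1 and 1584 RPKM against 329, 335 and 332 RPKM (log2 difference 2.37 ± 0.12, adjusted p = 3.56e-07).

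Genes of the contacts between cardiomyocytes were lower in quadriceps. Of 11 intercalated disc genes 9 were lower in quadriceps and none was higher, with a median log2 difference of -4.89. Of the 11, 2 had 3 counts or fewer in every library of 1 tissue and could be called in 1 direction only. Desmoplakin (Dsp, chr13:38151294-38198577), which ties desmosomes to desmin filaments, had counts of 62852, 64085 and 47415 in heart and of 1, 0 and 3 in quadriceps. Its scaled counts were 21291 (8316 to 78144) times as high in heart, adjusted p = 3.34e-09. Cdh2, the N-cadherin of the disc, had 40.3, 43.8 and 41.6 RPKM in heart and 0.114, 0.113 and 0.0468 RPKM in quadriceps (log2 difference -8.76 ± 0.24, adjusted p = 2.35e-09), and Pkp2, plakophilin of the desmosome, had 35.0, 34.9 and 33.5 and 0.920, 0.858 and 1.02 RPKM (log2 difference -5.21 ± 0.11, adjusted p = 2.22e-09). No quadriceps library approached a heart library for these genes. Gja1, connexin 43, the main gap junction protein of ventricle, kept 5.45, 4.69 and 4.36 RPKM in quadriceps against 135, 144 and 152 RPKM in heart (log2 difference -4.89 ± 0.12, adjusted p = 5.43e-09). The members that were not called were Nrap, at 119, 128 and 114 RPKM in heart and 109, 140.0 and 250.4 RPKM in quadriceps, and Tmem65, at 38.4, 35.8 and 36.4 and 57.9, 40.8 and 42.3 RPKM. Nrap is a myofibril assembly protein that limb muscle keeps at its tendon ends.

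Calcium handling used a separate channel set in each tissue. Among 19 calcium release and triad genes 11 were higher in quadriceps and 4 lower. Of the 19, 2 had 3 counts or fewer in every library of 1 tissue, so their direction was fixed by the filter. Ryr2, the cardiac release channel of the sarcoplasmic reticulum, stood at 68.4, 64.0 and 58.0 RPKM in heart and 0.00880, 0 and 0.00677 RPKM in quadriceps (log2 difference -13.51 ± 0.61, adjusted p = 2.99e-09). Ryr1, the skeletal release channel, stood at 0.00963, 0.0156 and 0.00916 RPKM in heart and 79.9, 108 and 107 RPKM in quadriceps (log2 difference 13.02 ± 0.30, adjusted p = 1.78e-09). Each channel was high in all 3 libraries of its own tissue and close to 0 in the other. Subunits of the voltage-gated channels that trigger them showed the same division. Cacna1c, the pore of the cardiac L-type channel, had 11.8, 11.8 and 11.8 RPKM in heart and 0.152, 0.120 and 0.179 RPKM in quadriceps (log2 difference -6.31 ± 0.14, adjusted p = 2.62e-09), and its partner Cacnb2 had 16.5, 15.8 and 16.8 and 0.145, 0.0990 and 0.0595 RPKM (log2 difference -7.25 ± 0.24, adjusted p = 4.03e-09). Cacng1, the gamma subunit of the skeletal channel, had counts of 1, 3 and 0 in heart and of 3189, 4388 and 3441 in quadriceps, a ratio of scaled counts of 5639 (2202 to 20700.0), adjusted p = 1.28e-08.

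Some genes of calcium storage and removal were divided as well. Casq1, the calcium store protein of fast fibers, stood at 35.8, 70.2 and 57.4 RPKM in heart and 1182, 1691 and 1381 RPKM in quadriceps (log2 difference 4.70 ± 0.24, adjusted p = 6.08e-07). Hrc, a histidine-rich calcium-binding protein of the same store, was nearly equal, at 544, 492 and 522 RPKM and 423, 517 and 472 RPKM (log2 difference -0.14, 95% interval -0.43 to 0.15). Of 10 pumps, exchangers and buffers 4 were higher (40%) and 2 lower (20%), with a median of 0.53 that turns to -0.22 with library totals. Over all genes 16.3% were higher and 20.6% lower. Atp2a1, the fast-twitch calcium pump SERCA1, stood at 0.172, 0.0582 and 0.0477 RPKM in heart and 1605, 2425 and 2244 RPKM in quadriceps (log2 difference 14.44 ± 0.41, adjusted p = 1.30e-08). Atp2a2, the cardiac and slow pump SERCA2, stood at 1238, 1214 and 1289 RPKM in heart and 23.1, 29.8 and 27.7 RPKM in quadriceps (log2 difference -5.54 ± 0.15, adjusted p = 1.18e-08). Parvalbumin (Pvalb), a soluble calcium buffer that speeds relaxation of fast fibers, had 0.199, 0.0836 and 0.0245 RPKM in heart and 6769, 8221 and 6961 RPKM in quadriceps (log2 difference 16.05 ± 0.48, adjusted p = 2.93e-09). The sodium-calcium exchangers changed place, with Slc8a1 at 7.08, 6.59 and 6.34 RPKM in heart and 1.35, 1.04 and 1.40 RPKM in quadriceps (log2 difference -2.40 ± 0.13, adjusted p = 3.85e-07) and Slc8a3 at 0.0212, 0.0120 and 0.00470 and 9.54, 6.76 and 8.86 RPKM (log2 difference 9.27 ± 0.50, adjusted p = 8.44e-09).

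The small membrane peptides that restrain the pumps showed 3 patterns. Phospholamban (Pln), the brake on SERCA2 that adrenergic signals release, stood at 1514, 1479.9 and 1612 RPKM in heart and 1.17, 1.13 and 0.845 RPKM in quadriceps (log2 difference -10.50 ± 0.16, adjusted p = 1.78e-09). Myoregulin (Mrln), its skeletal relative, stood at 0.286, 0.676 and 1.06 RPKM in heart and 121, 153 and 139.9 RPKM in quadriceps (log2 difference 7.68 ± 0.32, adjusted p = 2.29e-08). Sarcolipin (Sln), known from atria and limb muscle, had counts of 838, 48 and 2 in heart and of 161, 58 and 60 in quadriceps and was not called (log2 difference -0.65, adjusted p = 0.638). Without heart 1 its log2 difference was 2.91 with an adjusted p of 0.00767, so heart 1 decides its direction.

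Membrane excitability followed the same division. Among 27 sodium, potassium, chloride and pacemaker channel genes 8 were higher in quadriceps and 14 lower. Of the 27, 5 had 3 counts or fewer in every library of 1 tissue, so only 1 call was possible for each. Kcnip2, the subunit of the transient outward potassium current, stood at 47.9, 40.9 and 45.3 RPKM in heart and 0.0462, 0.0876 and 0.0237 RPKM in quadriceps (log2 difference -9.63 ± 0.39, adjusted p = 2.22e-09). Kcnj5, a subunit of the acetylcholine-gated potassium channel, had counts of 2630, 2406 and 2176 in heart and of 1, 0 and 0 in quadriceps, 3523 (632 to 139164) times as high in heart by scaled counts, adjusted p = 3.02e-09, and Kcne1 had 272, 339 and 276 in heart and none in quadriceps (at least 144-fold lower, adjusted p = 7.17e-07). In the other direction stood Kcnc4, a fast potassium channel, at 0.0419, 0.0198 and 0.0232 RPKM in heart and 6.08, 6.20 and 5.86 RPKM in quadriceps (log2 difference 7.68 ± 0.31, adjusted p = 3.47e-09).

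Receptors of the motor nerve marked the quadriceps and receptors of the autonomic nerves the heart. Of 10 neuromuscular junction genes tested 7 were higher and 2 lower, the latter being Colq and Dok7, with a median of 3.45. Of the 10, 2 had 3 counts or fewer in every library of 1 tissue and could be called in 1 direction only. Chrne, the adult subunit of the nicotinic acetylcholine receptor, had no count in heart and 129, 195 and 116 counts in quadriceps (at least 304-fold higher, adjusted p = 2.28e-06). Chrna1, its ligand-binding subunit, stood at 0, 0.0138 and 0.0216 RPKM in heart and 2.43, 2.98 and 2.89 RPKM in quadriceps (log2 difference 7.80 ± 0.60, adjusted p = 7.48e-08), and the kinase Musk, which clusters the receptors, at 0.0315, 0.0119 and 0.0280 and 1.64, 3.05 and 2.82 RPKM (log2 difference 6.67 ± 0.56, adjusted p = 4.30e-07). Colq, which anchors acetylcholinesterase, stood at 3.28, 2.75 and 2.37 RPKM in heart and 1.42, 1.60 and 1.10 RPKM in quadriceps (log2 difference -1.01 ± 0.17, adjusted p = 6.54e-04), and lost its call with DESeq2, with DESeq2 size factors and without heart 1, quadriceps 1 or quadriceps 3. Dok7 lost its call without quadriceps 3 and Rapsn, at 3.76, 2.91 and 3.24 RPKM in heart and 4.77, 8.26 and 8.14 RPKM in quadriceps, without quadriceps 2 or with library totals.

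Of 15 adrenergic and muscarinic genes 5 were higher and 10 lower (3 and 10 with library totals). Of the 15, 3 had 3 counts or fewer in every library of 1 tissue, which left them 1 possible call. Chrm2, the muscarinic receptor through which the vagus slows the heart, had counts of 1951, 2085 and 1354 in heart and of 1, 0 and 0 in quadriceps, a ratio of 2633 (472 to 104011) in favour of heart, adjusted p = 9.39e-09. Adrb1, the main cardiac beta-adrenoceptor, had counts of 446, 550 and 454 in heart and of 3, 1 and 0 in quadriceps, 177 (69.0 to 651) times as high in heart by scaled counts, adjusted p = 6.92e-08. Pde4d, a phosphodiesterase that ends cAMP signals, was higher in quadriceps, 23.0, 21.6 and 17.4 RPKM against 2.65, 1.99 and 1.82 RPKM (log2 difference 3.26 ± 0.16, adjusted p = 3.12e-07).

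Transcription factors that define each lineage were nearly exclusive. Of 13 cardiac factors 12 were lower in quadriceps, and Mef2c, which both lineages use, was higher, at 93.5, 90.9 and 101 RPKM against 7.11, 8.25 and 7.76 RPKM (log2 difference 3.63 ± 0.11, adjusted p = 1.64e-08). Of the 12, 5 had 3 counts or fewer in every quadriceps library. They passed the filter through heart alone, so lower was their one possible call. Gata4, a zinc-finger regulator of heart formation, had counts of 2099, 2152 and 1832 in heart and none in quadriceps (at least 990.2-fold lower, adjusted p = 2.10e-08). Tbx20 had counts of 2373, 2673 and 2079 in heart and Hand2, a regulator of ventricle formation, 1171, 1277 and 1253, and neither had a count in quadriceps (at least 1157-fold and at least 605-fold lower). Irx4, a ventricular homeobox gene, was lower likewise, with 930, 1000 and 920 counts in heart and none in quadriceps (at least 465-fold lower, adjusted p = 6.35e-08).

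Of 16 skeletal myogenic factors 15 were higher and none lower, with a median of 6.76, or 5.94 with 7 genes near 0 counts at their bound or ratio. These 7 could be called in 1 direction only. With library totals 1 of the 16 was lower. Myf6, the myogenic factor that persists in adult fibers, had no heart count and 1861, 2157 and 1234 counts in quadriceps (at least 3574-fold higher, adjusted p = 4.29e-08). Myod1, the factor that can turn other cells into muscle, had counts of 0, 2 and 0 in heart and of 180, 305 and 209 in quadriceps, a ratio of 710.4 (196 to 5878), adjusted p = 4.77e-07. Tbx15, a T-box factor of fast fibers, stood at 0.260, 0.268 and 0.111 RPKM in heart and 80.2, 101 and 106 RPKM in quadriceps (log2 difference 8.78 ± 0.26, adjusted p = 1.44e-08). The E-box shown in the Myh4, Mylpf and Mybpc3 windows is the sequence that factors of the Myod1 family recognise, and it occurs in windows from both sides of the comparison.

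Hox genes, which mark position along the body and limb, were higher in quadriceps. Of 12 hindlimb position genes 11 were tested, and 9 of these passed the filter through quadriceps alone, so that no other call than higher was possible for them. The median of the 11 was 8.71, or 6.14 with those 9 at their bound or ratio, and of 12 anterior Hox genes 10 were higher and none lower. Among the 12 anterior genes 3 had 3 counts or fewer in every library of 1 tissue and had 1 possible call. Hoxc10 (chr15:102966796-102971893) had no heart count and 1521, 1961 and 1299 counts in quadriceps (at least 3308-fold higher, adjusted p = 8.76e-08). Hoxa10 had no heart count and 357, 368 and 178 in quadriceps (at least 604-fold higher), and Hoxc11 had none against 30, 41 and 30 (at least 70.6-fold higher). Tbx4, the T-box factor that specifies the hindlimb, stood at 0.0420, 0.0199 and 0.00776 RPKM in heart and 0.784, 0.571 and 0.565 RPKM in quadriceps (log2 difference 4.70 ± 0.51, adjusted p = 6.82e-06). The noncoding RNA Hotair, from the Hoxc cluster, had no heart count and 34, 28 and 18 counts in quadriceps (at least 53.8-fold higher, adjusted p = 1.69e-05). Hoxc5 and Hoxc10 have overlapping exons on the same strand, so their reads may be shared.

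Splicing regulators of muscle were mostly not called. Of 13 genes 2 were higher and 2 lower, 15.4% each beside 16.3% and 20.6% of all genes. The median of 0.36 turns to -0.38 with library totals. Rbfox1 stood at 6.19, 6.67 and 7.52 RPKM in heart and 63.1, 80.3 and 72.6 RPKM in quadriceps (log2 difference 3.41 ± 0.13, adjusted p = 4.95e-08) and Mbnl1 at 19.7, 20.1 and 19.3 and 87.6, 72.9 and 74.5 RPKM (log2 difference 1.99 ± 0.11, adjusted p = 5.45e-07). Rbm20, which sets the length of titin in the heart, stood at 22.5, 20.8 and 20.7 RPKM in heart and 5.97, 7.83 and 8.52 RPKM in quadriceps (log2 difference -1.52 ± 0.14, adjusted p = 1.01e-05), and Ptbp1 was lower too (log2 difference -1.24).

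**Figure D3:**
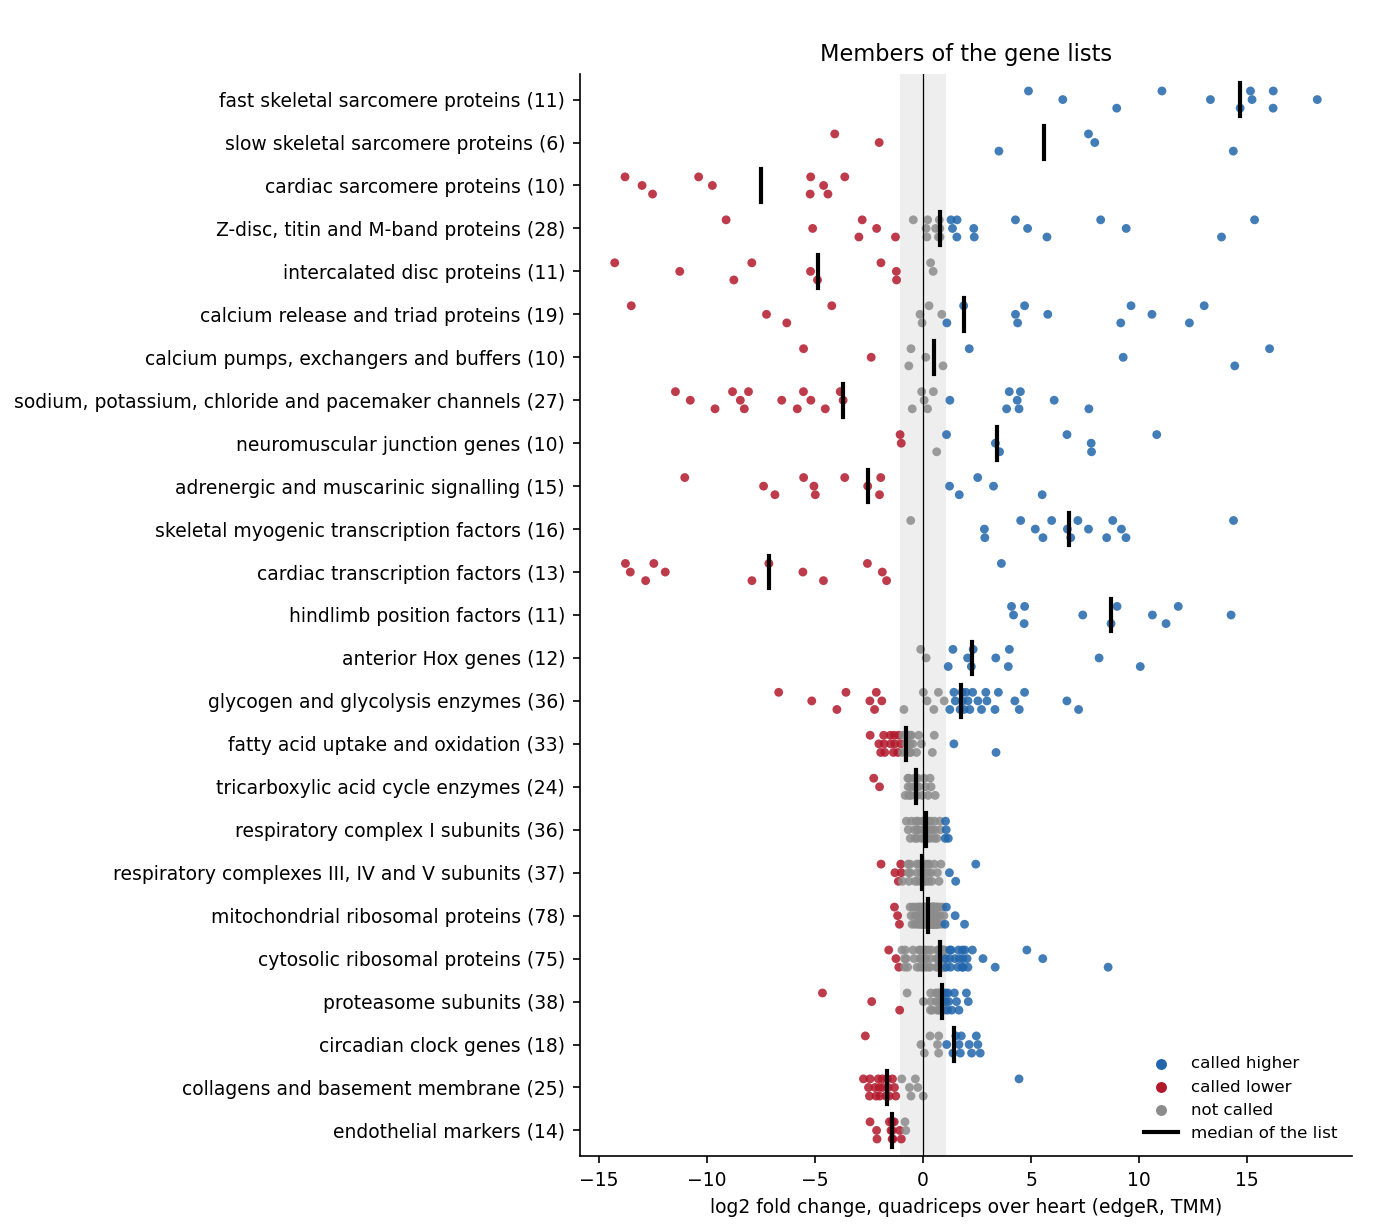
Log2 difference (quadriceps over heart) of every tested member of the gene lists, each point 1 gene and each bar the list median, with lists ordered by role. Fast sarcomere, myogenic and hindlimb genes lie far to the right, cardiac sarcomere and cardiac factor genes far to the left, and the mitochondrial lists lie around 0 with TMM scaling.

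Fuel use separated by pathway. Of 36 glycogen and glycolysis genes 22 were higher in quadriceps and 8 lower, with a median of 1.76. Aldoa, the aldolase of muscle, stood at 413, 395 and 427 RPKM in heart and 2087, 3319 and 2652 RPKM in quadriceps (log2 difference 2.71 ± 0.18, adjusted p = 1.79e-06). Phkg1, the catalytic subunit of muscle phosphorylase kinase, which starts glycogen breakdown, had 6.55, 3.53 and 4.54 RPKM in heart and 107, 147 and 126 RPKM in quadriceps (log2 difference 4.70 ± 0.21, adjusted p = 2.54e-07). Slc16a3, the lactate exporter MCT4, had 0.178, 0.265 and 0.160 RPKM in heart and 25.7, 34.0 and 30.7 RPKM in quadriceps (log2 difference 7.20 ± 0.21, adjusted p = 5.43e-09). The 8 lower members included isoforms that other tissues use. Pygb, the brain form of glycogen phosphorylase, stood at 96.1, 77.9 and 87.4 RPKM in heart and 0.983, 0.844 and 0.681 RPKM in quadriceps (log2 difference -6.69 ± 0.15, adjusted p = 4.03e-09), Hk1, hexokinase 1, at 38.7, 37.3 and 36.0 and 1.14, 0.950 and 1.05 RPKM (log2 difference -5.16 ± 0.11, adjusted p = 2.45e-09), and Pfkl, the liver form of phosphofructokinase, at 14.6, 15.1 and 17.8 and 0.936, 0.951 and 1.12 RPKM (log2 difference -3.99 ± 0.13, adjusted p = 1.69e-08). Gapdh had counts of 33, 28 and 30 in heart and of 1600, 1896 and 1051 in quadriceps. The gene has many pseudogene copies, and how reads with several matches were counted is not stated, so its level is uncertain in both tissues.

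Fatty acid genes leaned to the heart. Of 33 genes 14 were lower in quadriceps and 2 higher, with a median of -0.78 (27 lower and 1 higher with library totals). Lpl, the lipase that frees fatty acids from blood lipoproteins, stood at 655, 642 and 697 RPKM in heart and 226, 165 and 180.0 RPKM in quadriceps (log2 difference -1.80 ± 0.15, adjusted p = 6.66e-06), and Fabp3, which carries them through the cytosol, at 529, 608 and 590.1 and 218, 101 and 124 RPKM (log2 difference -1.96 ± 0.25, adjusted p = 1.07e-04). Cpt1a, a gate of mitochondrial fatty acid entry, stood at 4.14, 4.35 and 4.41 RPKM in heart and 0.928, 0.723 and 0.687 RPKM in quadriceps (log2 difference -2.45 ± 0.13, adjusted p = 3.39e-07). Higher members were Ucp3, a mitochondrial carrier of skeletal muscle, at 4.96, 5.04 and 4.95 RPKM in heart and 46.6, 62.7 and 46.1 RPKM in quadriceps (log2 difference 3.38 ± 0.13, adjusted p = 7.20e-08), and Pdk4. Pdk4, the kinase that closes pyruvate entry to the mitochondrion, had counts of 6154, 7377 and 7132 in heart and of 21135, 6137 and 2728 in quadriceps, so its groups overlapped. Its log2 difference of 1.43 (adjusted p = 0.0261) was 0.51 without quadriceps 1.

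Mitochondrial genes of the tricarboxylic acid cycle and the respiratory chain were mostly not called with TMM scaling. Of 24 tricarboxylic acid cycle genes none was higher and 2 were lower (none and 16 with library totals), Idh2 at 387, 382 and 396 RPKM in heart and 93.5, 67.5 and 78.0 RPKM in quadriceps (log2 difference -2.29 ± 0.13, adjusted p = 8.11e-07) and Ogdh at 203, 191 and 187 and 40.5, 53.7 and 49.7 RPKM (log2 difference -2.02 ± 0.14, adjusted p = 1.86e-06). Of 36 complex I subunits 4 were higher and none lower, with a median of 0.12, which with library totals turns to -0.63 with none higher and 9 lower. Of 37 subunits of complexes III, IV and V 3 were higher and 5 lower (median -0.06), 3 and 3 without quadriceps 1 or quadriceps 3, and 1 and 14 with library totals. With TMM these shares lie below the 16.3% and 20.6% of all genes. The called members of complex IV included Cox7c at 6.38, 5.91 and 8.44 RPKM in heart and 42.1, 37.9 and 32.1 RPKM in quadriceps (log2 difference 2.44 ± 0.16, adjusted p = 1.46e-06) and Cox6a1, the form of nonmuscle tissues, at 13.6, 11.3 and 14.1 and 3.69, 3.48 and 2.78 RPKM (log2 difference -1.95 ± 0.17, adjusted p = 5.98e-06). How reads with several matches were counted is not stated, so the low level of Cox7c and its difference are uncertain. Of 11 ketone and branched-chain amino acid genes 2 were lower (10 with library totals). This is 18.2%, near the 20.6% of all genes. Among them was Bdh1, which oxidises ketone bodies, at 44.9, 45.4 and 57.1 RPKM in heart and 16.6, 16.5 and 14.8 RPKM in quadriceps (log2 difference -1.62 ± 0.12, adjusted p = 3.34e-06). Oxct1 was not called, at 286, 264 and 289 and 164, 159 and 169.7 RPKM (log2 difference -0.77).

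Genes of phosphate transfer differed in level between the tissues, but the muscle creatine kinase stood above the brain form in both. Of 14 creatine and adenylate genes 4 were higher (28.6%) and 2 lower (14.3%), or 2 and 7 with library totals. Of the 14, 2 had 3 counts or fewer in every library of 1 tissue and could be called in 1 direction only. Ckm, the muscle creatine kinase, stood at 661, 674 and 701 RPKM in heart and 9280.3, 13890.4 and 12619 RPKM in quadriceps (log2 difference 4.14 ± 0.18, adjusted p = 1.97e-07), and Ckb, the brain form, at 6.97, 7.04 and 7.00 and 0.576, 0.541 and 0.616 RPKM (log2 difference -3.60 ± 0.15, adjusted p = 3.34e-08). Ampd1, the AMP deaminase of fast fibers, had counts of 0, 0 and 1 in heart and of 18523, 14795 and 13506 in quadriceps, a ratio of 95859 (17204 to 3786296), adjusted p = 1.78e-09. Gamt, the last enzyme of creatine synthesis, was higher (log2 difference 1.34 ± 0.33, adjusted p = 0.00548) but lost its call without quadriceps 1 and with library totals. Of 14 metabolic regulators 2 were higher (14.3%) and 3 lower (21.4%), or 1 and 7 with library totals. These shares lie near the 16.3% and 20.6% of all genes. Ppara, a receptor that turns on fatty acid genes, stood at 4.70, 4.58 and 4.62 RPKM in heart and 1.80, 1.44 and 1.33 RPKM in quadriceps (log2 difference -1.60 ± 0.12, adjusted p = 3.90e-06), and Nr4a1, an orphan receptor induced by activity, at 1.40, 1.29 and 0.935 and 22.0, 40.8 and 80.3 RPKM (log2 difference 5.29 ± 0.41, adjusted p = 7.76e-06).

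Some abundant genes were nearly equal in both muscles. Of the genes whose 95% interval lay within 0.5 of no difference, the most abundant was Cox6a2, the striated muscle form of a complex IV subunit, at 1407, 1434 and 1518 RPKM in heart and 1411, 1418 and 1235 RPKM in quadriceps (log2 difference -0.10, interval -0.37 to 0.17). Fth1, the ferritin heavy chain, had 693, 647 and 764 RPKM in heart and 636, 781 and 699.6 RPKM in quadriceps (log2 difference 0.01, interval -0.28 to 0.30). Pdha1, of the pyruvate dehydrogenase complex, had 319.7, 292 and 316 and 330.2, 324 and 303 RPKM (0.04, interval -0.22 to 0.30). Their groups overlapped. The others of the 10 most abundant included Hrc, Chchd10 and the subunits Ndufa12, Ndufb7, Atp5c1 and Atp5k of the respiratory chain and ATP synthase. Myoglobin (Mb), the oxygen store, was among the 12 most abundant genes of both tissues, at 6576, 6535 and 6793 RPKM in heart and 4471, 3157 and 3062 RPKM in quadriceps (log2 difference -0.90 ± 0.18, adjusted p = 0.00167). The libraries of the tissues did not overlap, but the difference was under the threshold. Slc25a4, the carrier that exports ATP from mitochondria, stood at 2329, 2227 and 2388 and 3734, 3562 and 3013 RPKM (log2 difference 0.57 ± 0.14, adjusted p = 0.00552).

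Abundance was more concentrated in quadriceps. The 10 most abundant genes held 36.0, 40.4 and 37.6% of summed RPKM in the quadriceps libraries and 22.5, 22.7 and 22.6% in the heart libraries. It took 48, 26 and 40 genes to reach 50% of the sum in quadriceps and 160, 162 and 159 in heart. The groups did not overlap for either measure (exact permutation p = 0.1, two-sided, the smallest that 3 against 3 libraries can give). Myl2 led every heart library, and Tnnc2 or Tnnt3 led the quadriceps libraries.

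Genes of protein synthesis and turnover gave small differences that depend on the scaling. Of 75 tested cytosolic ribosomal protein genes 23 were higher and 3 lower (12 and 11 with library totals), with a median of 0.80. Many of these genes have processed copies elsewhere in the genome, so single values such as those of Rpl29 and Rps18 are uncertain. Rpl4, the most abundant, was not called, at 166, 172 and 169 RPKM in heart and 266, 263 and 284 RPKM in quadriceps (log2 difference 0.68). Of 78 mitochondrial ribosomal protein genes 4 were higher and 3 lower (1 and 12 with library totals), with a median of 0.24 that turns to -0.52 with library totals. Of 38 proteasome genes 11 were higher and 3 lower (2 and 4 with library totals). The lower members were Psmb8 and Psmb10, of the immunoproteasome, and Psma8, of the testis form. Psmb10 stood at 11.6, 11.9 and 10.9 RPKM in heart and 2.19, 2.75 and 1.57 RPKM in quadriceps (log2 difference -2.38 ± 0.17, adjusted p = 2.10e-06). The shares higher and lower were 30.7% and 4% for the cytosolic ribosome and 28.9% and 7.89% for the proteasome. For the mitochondrial ribosome they were 5.13% and 3.85%, below the 16.3% and 20.6% of all genes.

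Genes of muscle atrophy went both ways. Fbxo32, atrogin-1, stood at 17.6, 18.6 and 15.5 RPKM in heart and 57.3, 79.7 and 52.8 RPKM in quadriceps (log2 difference 1.88 ± 0.16, adjusted p = 9.54e-06), and Trim63, MuRF1, at 65.9, 63.3 and 65.4 and 126, 175 and 115 RPKM (log2 difference 1.10 ± 0.15, adjusted p = 2.00e-04). Trim63 lost its call without quadriceps 2 and with library totals. In the ubiquitin ligase and atrophy list 4 of 14 genes were higher (28.6%) and 2 lower (14.3%), with a median of -0.04 (2 and 5 with library totals). The shares of all genes were 16.3% and 20.6%. Foxo4 stood at 10.7, 11.0 and 11.9 RPKM in heart and 36.2, 46.6 and 41.2 RPKM in quadriceps (log2 difference 1.88 ± 0.12, adjusted p = 9.39e-07), and Foxo3, a related factor that drives atrophy genes, at 3.99, 4.60 and 3.90 and 1.05, 1.04 and 0.882 RPKM (log2 difference -2.06 ± 0.13, adjusted p = 9.79e-07). Of 17 autophagy genes 3 (17.6%, beside 16.3% of all genes) were higher and none lower (1 lower without quadriceps 2). The median of 0.41 turns to -0.35 with library totals. Bnip3, which tags mitochondria for removal, stood at 5.72, 5.57 and 5.89 RPKM in heart and 20.9, 20.7 and 19.5 RPKM in quadriceps (log2 difference 1.83 ± 0.09, adjusted p = 2.51e-07).

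Among 15 small heat shock proteins and chaperones 5 were higher and 1 lower (2 lower without quadriceps 1 or quadriceps 3), and the median of 0.67 turns to -0.10 with library totals. Hspa8, the constitutive HSC70, stood at 2.79, 2.21 and 3.08 RPKM in heart and 30.3, 43.8 and 38.3 RPKM in quadriceps (log2 difference 3.80 ± 0.17, adjusted p = 1.41e-07). How reads with several matches were counted is not stated, so the level of Hspa8 and its difference are uncertain. Hspb7, a small heat shock protein of heart, stood at 398, 425 and 364 RPKM in heart and 76.7, 80.4 and 205 RPKM in quadriceps (log2 difference -1.72 ± 0.34, adjusted p = 0.00171). The inducible Hspa1a had 0.224, 1.06 and 5.24 RPKM in quadriceps and 0.0300, 0.0569 and 0.0750 RPKM in heart (log2 difference 5.25 ± 1.35, adjusted p = 0.00227), and 3.57 without quadriceps 3, the library with the highest level. Of 16 antioxidant genes none was higher and 2 were lower (7 with library totals). This is 12.5%, below the 20.6% of all genes. The 2 lower genes were the extracellular Sod3 at 23.5, 19.9 and 20.2 RPKM in heart and 5.53, 4.18 and 4.57 RPKM in quadriceps (log2 difference -2.15 ± 0.13, adjusted p = 8.96e-07) and Gsta4 (log2 difference -1.54).

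Most clock genes were higher in quadriceps. Of 18 genes 11 were higher and 1 lower, with a median of 1.45 (6 and 1 with library totals). Per1, a repressor of the core loop, stood at 1.10, 0.800 and 0.736 RPKM in heart and 3.37, 6.57 and 6.68 RPKM in quadriceps (log2 difference 2.65 ± 0.26, adjusted p = 2.17e-05), Rora, an activator of Bmal1, at 1.59, 1.68 and 1.54 and 11.1, 7.68 and 9.12 RPKM (log2 difference 2.54 ± 0.14, adjusted p = 4.57e-07), and Tef, an output factor, at 6.39, 5.74 and 5.93 and 27.1, 42.1 and 30.7 RPKM (log2 difference 2.47 ± 0.16, adjusted p = 1.42e-06). Npas2, a partner of Bmal1 in place of Clock, was the lower gene, at 1.01, 0.918 and 1.16 RPKM in heart and 0.195, 0.131 and 0.150 RPKM in quadriceps (log2 difference -2.67 ± 0.22, adjusted p = 3.60e-06). The hour at which each tissue was taken is not given, so time of day and tissue cannot be told apart for these genes.

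Secreted factors differed as well. In the natriuretic peptide and musclin list 1 of 8 tested genes was higher and 4 were lower. Of the 8, 2 had 3 counts or fewer in every library of 1 tissue, the higher gene among them. Only 1 call was possible for each of these. Nppa, atrial natriuretic peptide, stood at 534, 465 and 218 RPKM in heart and 0.774, 0.489 and 0.198 RPKM in quadriceps (log2 difference -9.59 ± 0.56, adjusted p = 2.18e-07). Nppb, its ventricular relative, had counts of 3859, 4043 and 2271 in heart and of 1, 0 and 2 in quadriceps, 1656 (567 to 8033) times as high in heart by scaled counts, adjusted p = 2.66e-08. Ostn, which encodes musclin, a muscle peptide that binds the natriuretic clearance receptor, was the higher gene, with counts of 2, 0 and 0 in heart and of 110, 132 and 75 in quadriceps. Its ratio was 324 (89.1 to 2691), adjusted p = 4.57e-07. The receptors were not called. Npr2, the receptor of C-type natriuretic peptide, stood at 5.83, 6.13 and 5.67 RPKM in heart and 6.71, 8.18 and 8.01 RPKM in quadriceps (log2 difference 0.38 ± 0.11, adjusted p = 0.0123), and Npr3, the clearance receptor, at 1.64, 1.47 and 1.46 and 1.09, 0.550 and 0.833 RPKM (log2 difference -0.88 ± 0.21, adjusted p = 0.00417). Corin, the protease that matures Nppa, stood at 25.2, 15.7 and 21.4 RPKM in heart and 0.0393, 0.0179 and 0 RPKM in quadriceps (log2 difference -9.86 ± 0.71, adjusted p = 3.08e-08).

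Of 23 growth factor and myokine genes 7 were higher and 10 lower (4 and 13 with library totals). Myostatin (Mstn), the brake on muscle growth, stood at 0.0700, 0.0663 and 0.0431 RPKM in heart and 26.8, 37.6 and 28.0 RPKM in quadriceps (log2 difference 8.96 ± 0.31, adjusted p = 4.03e-09), and its inhibitor follistatin (Fst) at 0.169, 0.167 and 0.220 and 0.838, 0.996 and 1.33 RPKM (log2 difference 2.49 ± 0.25, adjusted p = 1.59e-05). Fgf16, a cardiac growth factor, stood at 3.85, 3.23 and 4.04 RPKM in heart and 0.0485, 0.0826 and 0.0931 RPKM in quadriceps (log2 difference -5.66 ± 0.32, adjusted p = 4.14e-08). Apln, the apelin peptide, stood at 2.40, 2.54 and 3.50 RPKM in heart and 0.503, 0.146 and 0.288 RPKM in quadriceps (log2 difference -3.13 ± 0.34, adjusted p = 2.39e-05). Vegfb, the most abundant of the list, stood at 134, 125 and 128 RPKM in heart and 57.2, 75.1 and 60.8 RPKM in quadriceps (adjusted p = 7.11e-05), a difference close to the threshold that lost its call with DESeq2, with DESeq2 size factors and without heart 1, quadriceps 1 or quadriceps 3.

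Of 25 collagen and basement membrane genes 18 were lower and 1 higher, with a median of -1.66. Col4a1, of the basement membrane net, stood at 35.2, 38.6 and 37.0 RPKM in heart and 7.22, 5.86 and 6.12 RPKM in quadriceps (log2 difference -2.53 ± 0.11, adjusted p = 1.31e-07), and Lamb1 at 15.3, 15.4 and 15.2 and 2.73, 1.86 and 2.16 RPKM (log2 difference -2.76 ± 0.14, adjusted p = 2.67e-07). The fibrillar Col3a1 was not called (25.2, 21.6 and 21.8 RPKM in heart and 20.2, 13.1 and 20.4 RPKM in quadriceps). Col22a1, a collagen of the muscle-tendon junction, was the higher gene, at 0.0312, 0.0951 and 0.0576 RPKM in heart and 1.03, 1.59 and 1.47 RPKM in quadriceps (log2 difference 4.44 ± 0.34, adjusted p = 1.98e-06).

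Some markers of cells other than muscle fibers differed between the tissues. Of 14 endothelial markers 12 were lower in quadriceps and none higher. Their summed level was 195, 201 and 209 RPKM in the heart libraries and 72.6, 67.2 and 76.4 RPKM in quadriceps. Kdr, a receptor for vascular growth factor, stood at 29.8, 29.4 and 31.0 RPKM in heart and 6.48, 6.28 and 7.82 RPKM in quadriceps (log2 difference -2.13 ± 0.11, adjusted p = 3.34e-07), and Cdh5, the cadherin of endothelium, at 33.9, 35.4 and 37.1 and 11.4, 11.7 and 13.0 RPKM (log2 difference -1.56 ± 0.10, adjusted p = 1.18e-06). These markers moved with the basement membrane genes, which endothelium also makes, and their part in that result was not tested. Of 10 fibroblast markers 3 were lower and none higher (summed level 318, 305 and 281 RPKM in heart and 286, 201 and 211 in quadriceps), of 8 smooth muscle and pericyte markers 4 were lower (112, 118 and 114 and 114, 82.6 and 97.8 RPKM), and of 10 macrophage markers 4 were lower (37.4, 37.0 and 37.3 and 20.5, 17.8 and 24.6 RPKM). These are 30%, 50% and 40% of the 3 lists, beside 20.6% of all genes. The counts of the macrophage and fibroblast lists run from 3 to 7 and from 2 to 5 lower genes when each library is left out, and library totals gave 9 and 8, an alternative added after the data were seen. Of 3 tested lymphocyte markers none was called. All 7 red blood cell markers were lower, with sums of 484, 539.5 and 451 RPKM in heart and 165, 133 and 158 RPKM in quadriceps, the 2 alpha-globin genes having identical counts. The beta-globin names Hbb-b1 and Hbb-b2 have no position in the annotation used, so the 7 names may not be separate genes.

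Markers of cells that limb muscle holds beside its fibers were higher in quadriceps. The 5 satellite cell markers, of the stem cells of muscle, had sums of 0.0166, 0.0850 and 0.0175 RPKM in heart and 6.23, 7.04 and 6.51 RPKM in quadriceps. Pax7, their defining factor, had no heart count and 18, 23 and 9 in quadriceps (at least 33.4-fold higher, adjusted p = 1.04e-04). Calcr had 6, 0 and 8 counts there, overlapped with the heart libraries, all at 0, and lost its call with DESeq2. Of the 5 markers 4 passed the filter through quadriceps alone, which leaves higher as their one possible call. Tendon markers were higher in 4 of 6, led by tenomodulin (Tnmd) at 0.191, 0.121 and 0.0354 RPKM in heart and 8.57, 7.27 and 6.01 RPKM in quadriceps (log2 difference 5.92 ± 0.41, adjusted p = 3.15e-07). Of 7 Schwann cell markers 3 were higher and 1 lower. Cdh19 was the lower one (log2 difference -2.17). Of 5 mesothelial markers only Wt1 passed the count minimum, so the list rests on 1 gene. Wt1 had counts of 93, 103 and 116 in heart and of 1, 0 and 1 in quadriceps, 76.2 (20.9 to 632) times as high in heart by scaled counts, adjusted p = 3.42e-06.

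**Figure D4:**
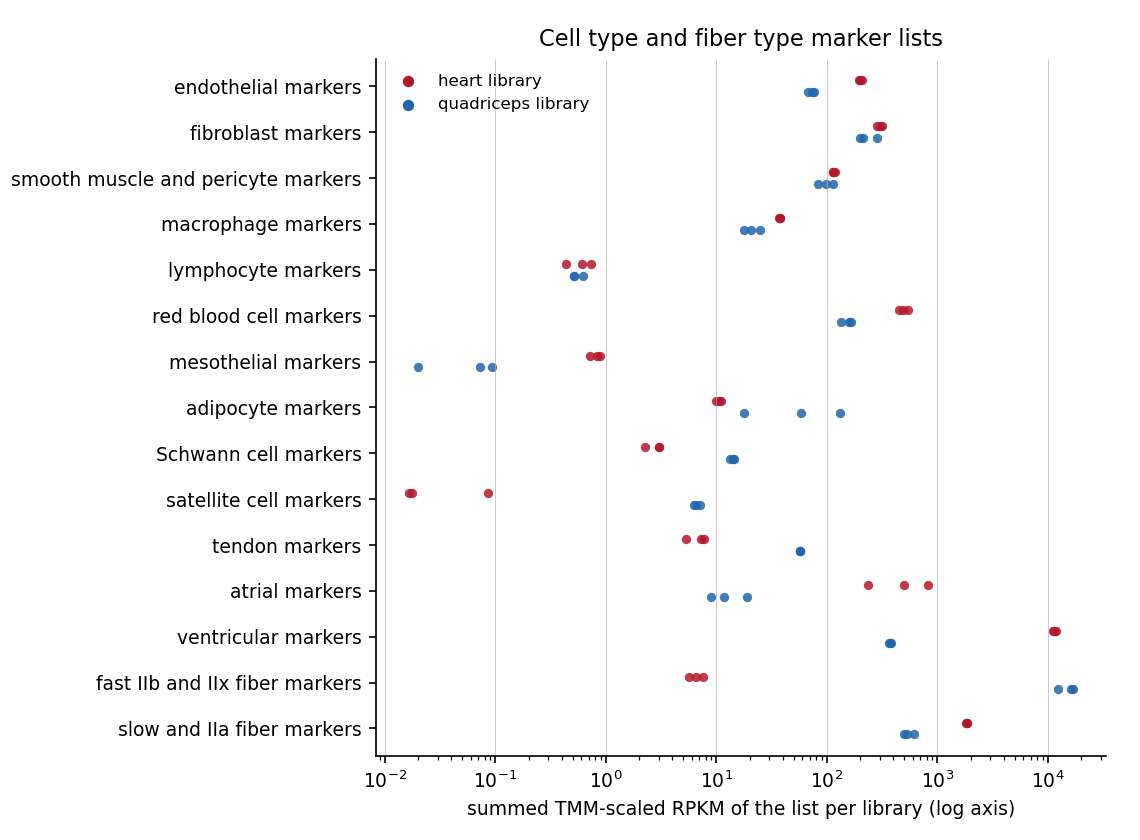
Summed level of each cell marker list in each library, on a log10 RPKM axis, with heart and quadriceps libraries as separate points. The endothelial and red blood cell sums of the 3 heart libraries lie above those of quadriceps, the satellite cell, tendon and Schwann sums lie below, and the adipocyte sums of quadriceps and the atrial sums of heart spread widely.

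Adipocyte markers stood at very different levels in the quadriceps libraries. Of 7 tested adipocyte markers 6 were higher and 1 lower, and their sum was 131, 58.1 and 17.8 RPKM in quadriceps 1, 2 and 3 and 11.1, 10.6 and 9.94 RPKM in heart. Adiponectin (Adipoq) had 1183, 425 and 94 counts in quadriceps and 26, 13 and 7 in heart (log2 difference 6.09 ± 0.92, adjusted p = 1.15e-04), and resistin (Retn) 393, 201 and 41 and 2, 5 and 2 (log2 difference 6.99 ± 1.25, adjusted p = 4.12e-05). Quadriceps 1 held the most of both and quadriceps 3 the least. Without quadriceps 1, 6 of 7 markers were still higher, with log2 differences of 5.20 for Adipoq and 6.39 for Retn. Cidea, a lipid droplet protein, was the lower marker, at 9.51, 9.83 and 9.52 RPKM in heart and 4.80, 0.759 and 1.17 RPKM in quadriceps (log2 difference -2.03 ± 0.48, adjusted p = 0.0041). Adrb3, the beta-adrenoceptor of fat, moved with these markers, with counts of 1, 3 and 0 in heart and of 72, 33 and 2 in quadriceps, a ratio of scaled counts of 54.8 (20.8 to 205).

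The heart libraries differed in atrial genes. Myl7, the atrial regulatory light chain, had counts of 2075, 164 and 3 in heart 1, 2 and 3 and 1, 0 and 0 in quadriceps, and Myl4, the atrial essential light chain, had 6811, 756 and 91 and 153, 75 and 73. The atrial marker sum was 819.7, 499.7 and 233 RPKM in heart 1, 2 and 3 and 18.9, 8.87 and 11.7 in quadriceps, and 11123, 11807 and 11329.9 RPKM for ventricular markers in heart. Myl4 therefore overlapped between tissues, and its log2 difference of -3.63 (adjusted p = 0.0232) lost its call without heart 1 (adjusted p = 0.202). The call was also lost without each quadriceps library. Myl7 lost its call without quadriceps 1 and fell below the count minimum without heart 1 or heart 2. Of 5 tested atrial markers 4 were lower with all libraries, and 2 of 4 were lower and 1 higher without heart 1, an alternative added after the data were seen. All 4 ventricular markers were lower in quadriceps with and without each library.

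The quadriceps libraries differed in genes linked to stretch and stress. Ankrd1, a titin-linked cardiac ankyrin repeat protein, had counts of 101731, 114651 and 65364 in heart and of 405, 199 and 2646 in quadriceps 1, 2 and 3. Its log2 difference of -5.11 (adjusted p = 0.00143) was -7.39 without quadriceps 3. Csrp3, a muscle LIM protein of the Z-disc, had 823, 844 and 743 RPKM in heart and 57.8, 38.7 and 212 RPKM in quadriceps, and its log2 difference of -2.97 was -4.04 without that library. Mustn1, chosen after its values were seen, had 1053, 1276 and 8644 counts in quadriceps and 160, 195 and 199 in heart. Each of these genes was highest in quadriceps 3, as were Hspa1a and Hspb7 above. The Z-disc counts of 13 higher and 6 lower were 13 and 7 without quadriceps 3. Of 6786 well-counted genes, 315 (4.64%) ranged over more than 2-fold among the quadriceps libraries and 30 (0.442%) among the heart libraries. These are not only genes of stretch, stress or fat. Quadriceps 1 and 2 differed the most of the quadriceps pairs (chi-square per degree of freedom 59.6, Spearman correlation 0.977). Some genes were lowest in quadriceps 2, such as Golga4 at 79.4, 21.3 and 66.7 RPKM in quadriceps 1, 2 and 3.

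**Figure D5:**
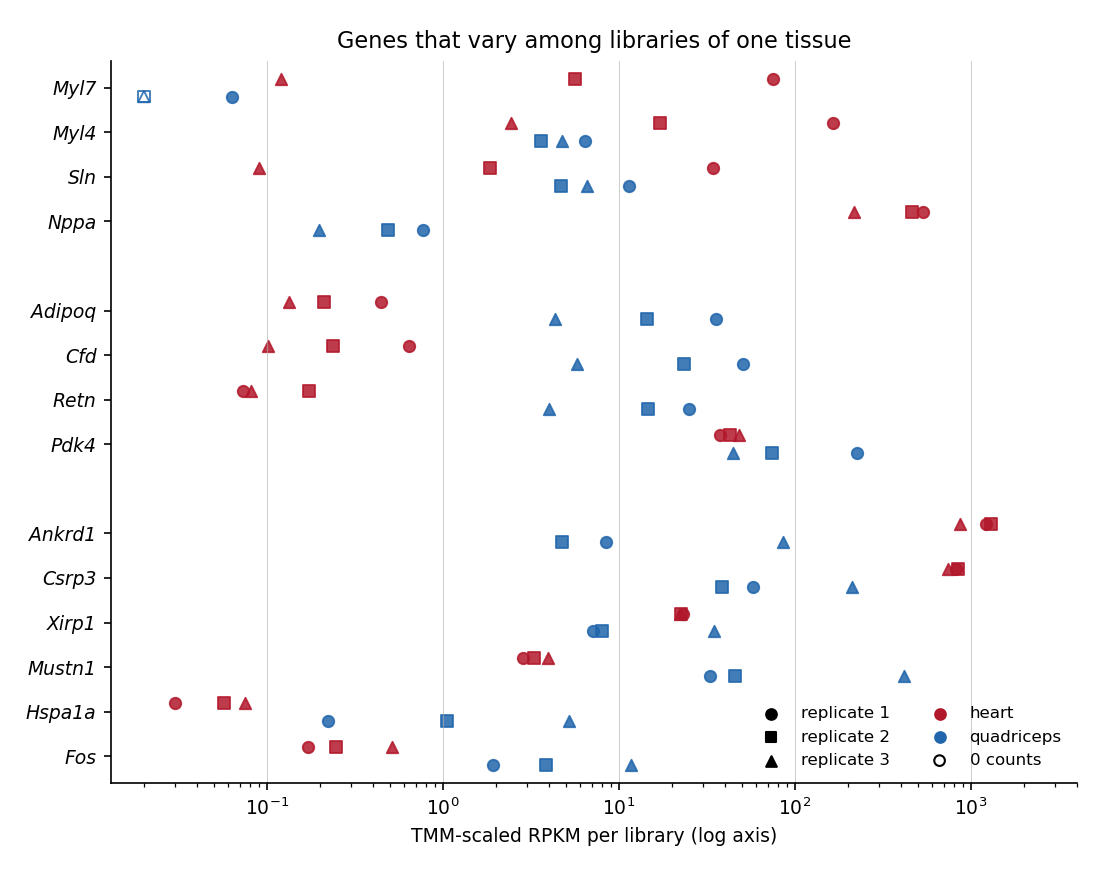
Level of chosen genes that vary among the libraries of a tissue, on a log10 RPKM axis, with marker shape for the replicate number and open markers for 0 counts. The genes are not a ranking, and some genes not shown spread more widely. Atrial light chains separate heart 1 from heart 3, adipocyte genes separate quadriceps 1 from quadriceps 3, and Ankrd1 and Csrp3 are highest in quadriceps 3.

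Some of the widest differences lay outside the lists. Ptgds, a prostaglandin D synthase, had counts of 3395, 3141 and 2631 in heart and none in quadriceps (at least 1491-fold lower, adjusted p = 2.67e-08). Gpr22, an orphan receptor of heart and brain, had counts of 1863, 1896 and 1894 in heart and none in quadriceps (at least 924-fold lower, adjusted p = 4.12e-08). In the other direction Mettl21c, a lysine methyltransferase of skeletal muscle, had no heart count and 1730, 2015 and 1564 in quadriceps (at least 3698-fold higher, adjusted p = 5.91e-08). The noncoding 2310065F04Rik (NR_038055, chr11:67112461-67120080) also had none in heart and 4237, 3371 and 2476 counts in quadriceps (at least 6835-fold higher, adjusted p = 8.06e-09). It lies on the chromosome that carries Myh4, and its groups did not come near each other.

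Of 1103 tested genes represented by a noncoding RefSeq transcript, 264 were higher and 215 lower. Over all tested genes 16.3% were higher and 20.6% lower. The imprinted H19 stood at 3.24, 3.41 and 3.74 RPKM in heart and 446, 277 and 218 RPKM in quadriceps (log2 difference 6.50 ± 0.24, adjusted p = 1.04e-07), and Malat1, a nuclear RNA, at 37.7, 36.9 and 68.6 and 309.9, 119 and 214 RPKM (log2 difference 2.17 ± 0.34, adjusted p = 5.37e-04). Mhrt, a heart transcript that lies antisense to Myh7, stood at 296, 251 and 245 RPKM in heart and 7.68, 15.0 and 12.8 RPKM in quadriceps (log2 difference -4.49 ± 0.21, adjusted p = 2.71e-07). Its exons overlap those of Myh7, and since the strand setting of the counting is not stated, reads of the pair cannot be told apart. The same limit holds for the 83 of 316 named genes whose exons overlap a gene of the opposite strand. Of 9 muscle microRNA loci 2 were tested. Mir133a-2 was higher (counts of 8, 6 and 6 in heart and of 52, 48 and 33 in quadriceps) and Mir208b, which sits in Myh7, was lower (19, 15 and 9 and 1, 0 and 0), as counts of long RNA over the locus and not of mature microRNA.

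Transcripts of the same gene share reads, since a read was counted on every transcript it overlaps. For 3936 genes with at least 2 well-counted transcripts the median gap between the log2 differences of their transcripts was 0.0218, and 45 genes had a gap over 1. Tpm3, slow tropomyosin, had the widest gap of 6.64. Its transcript NM_001293748 differed by 7.95 and NM_001253738 by 1.31 on the log2 scale, both higher in quadriceps. Airn, an imprinted antisense RNA, was the only gene with transcripts called in opposite directions, NR_027773 higher by 1.91 and NR_002853 lower with a log2 difference of -1.23.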

How the data were processed

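The libraries were made by the authors from total RNA with the ScriptSeq v2 kit and sequenced with single-end reads. The labels describe the RNA isolation for quadriceps alone. The authors trimmed reads with Trim Galore!, aligned them to mm10 with STAR and counted them with Rsubread, and the deposited values are raw counts for each RefSeq transcript. They also deposited RPKM values, equal to the counts scaled to transcript length and library total, from which no result is taken. Versions and the strand and multiple-match settings are not given in the sources used here. Columns of the authors' own comparison (fold changes and p-values) were not used, and 0 columns of single libraries were left out. The members and gene lists (52 lists) were chosen with earlier results of these data known, so the counts and medians of the lists are descriptions.

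Transcripts exceeding 5 counts in 2 or more libraries were fitted with edgeR 4.0.16 (R 4.3.3) by the quasi-likelihood test with TMM normalization, only sham quadriceps and sham heart entering, and Benjamini-Hochberg adjustment over all 24280. TMM factors were 1.29 to 1.31 in heart and 0.73 to 0.83 in quadriceps. The RPKM of the text are computed from the counts with these factors. The procedure was tested on data simulated with the library sizes and mean levels of this comparison. Of 200 transcripts changed by a log2 fold change of 2 among 23860, 98.5% were recovered, and 1.99% of all calls fell on unchanged transcripts. The changes were balanced in direction, and both tissues were given the same spread. The simulation therefore does not cover the large share of differing transcripts, the shift with scaling or the unequal spread of the real libraries. Replicate libraries differed by more than sampling noise (chi-square per degree of freedom 7.40 to 59.6), so none was counted as a duplicate. The biological coefficient of variation was 0.084 in heart and 0.18 in quadriceps, and intervals of count ratios and floors cover counting error only, while the intervals of log2 differences include the spread between libraries.

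The most abundant transcript by mean count stands for each gene. Named genes are the markers Myh6 and Myh4, the 12 largest differences in each direction with at least 10 TMM-scaled CPM in the higher tissue and no overlap, the 12 most abundant genes of each tissue, up to 3 largest called members of each list in each direction with its most abundant member (any member of lists up to 12), the 10 most abundant genes whose 95% interval lay within 0.5, and genes whose transcripts of at least 50 counts were called in opposite directions. Not every gene selected is reported. Alternatives were DESeq2 1.42.0, other scalings, filters and call rules, 1 transcript per gene, a replicate block and leaving out each library. Positions come from GENCODE vM21 (GRCm38), promoters from RefSeq (GRCm38.p6). Promoters were found for 75.8% of the tested genes, under 80%, so motif shares were not compared between gene groups. Tables were made in Python 3.11.15 (pandas 2.3.3) and intervals in scipy 1.17.1.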

Additional observations from a re-analysis of the deposited data

How the results depend on the processing

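The count of higher transcripts (3881) lay between 3733 and 3911 when each library was left out, and that of lower transcripts (4983) between 4679 and 5045. DESeq2 gave 3914 and 4705, upper quartile factors 3560 and 5438. Library totals gave 1914 and 10173, 1 transcript per gene 2421 and 3083, a log2 difference beyond 2 with an unadjusted p under 0.05 gave 1699 and 2097, and both counts fell with at least 10 counts in every library (2719 and 3299) and with a test against a log2 difference of 1 (2736 and 3257). The labels do not say whether the numbers pair the samples. Same-numbered libraries had correlations of deviations of 0.023, -0.097 and -0.0093, and not every library correlated best with its own number. These values cannot decide whether same-numbered libraries share a mouse, since deviations of different tissues need not move together. With the replicate number as a block 3845 were higher and 5001 lower. Of 318 named genes 1 changed direction with its call, Sln without heart 1 (2.91, against a lowest value of -1.22 without heart 3), and 24 lost a call under some alternative. Library totals turned the medians of calcium pumps (-0.22), splicing regulators (-0.38), complex I (-0.63), mitochondrial ribosome (-0.52), autophagy (-0.35) and chaperones (-0.10), which follows from the shift of all transcripts. The median of the 3 SERCA peptides turned with the block (0.59) and without heart 1 (2.91, lowest -1.22), and that of the 2 microRNA loci without heart 1 (0.017), quadriceps 2 (0.060) or quadriceps 3 (0.023), with a lowest value of -1.36 without quadriceps 1. In these 2 lists the cause was not tested. Depth limits genes near 0 in 1 tissue, where 3 counts over its libraries set the bound.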

Other observations

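Further muscle genes outside the lists differed widely, and those given here were chosen after their values were seen. The kinases that phosphorylate the myosin regulatory light chain followed the troponins, the skeletal Mylk2 having counts of 5, 4 and 3 in heart and of 11242, 10728 and 11129 in quadriceps (log2 difference 12.45 ± 0.44, adjusted p = 2.45e-09) and the cardiac Mylk3 having counts of 14470, 13669 and 10971 in heart and of 7, 11 and 3 in quadriceps (log2 difference -9.81 ± 0.30, adjusted p = 2.35e-09). Each was high in all 3 libraries of its own tissue. Beta-tropomyosin (Tpm2) had counts of 1110, 1044 and 740 in heart and of 126110, 167867 and 130510 in quadriceps (log2 difference 8.28 ± 0.20, adjusted p = 1.59e-08). Bin1, which shapes the transverse tubules, had 190, 204 and 167 and 7504, 10928 and 7773 counts (log2 difference 6.62 ± 0.19, adjusted p = 1.84e-08), and Capn3, a protease bound to titin, 118, 180 and 226 and 3401, 2814 and 2390 counts (log2 difference 5.06 ± 0.22, adjusted p = 1.66e-07). Prkag3, the AMPK subunit of glycolytic muscle, had counts of 94, 69 and 78 in heart and of 2804, 4637 and 3229 in quadriceps (log2 difference 6.54 ± 0.25, adjusted p = 9.25e-08). All 4 genes were higher in every quadriceps library than in any heart library. Carbonic anhydrase 3 (Car3) had counts of 169, 62 and 35 in heart and of 45243, 11745 and 9173 in quadriceps 1, 2 and 3 (log2 difference 8.89 ± 0.60, adjusted p = 6.82e-06), highest in the library with the highest adipocyte sum, and the part of fat in this value was not tested.

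On the cardiac side Fhl2, a LIM protein of the cardiac sarcomere, had counts of 24196, 27367 and 25178 in heart and of 40, 23 and 16 in quadriceps (log2 difference -8.90 ± 0.19, adjusted p = 2.22e-09). Kcnk3, a background potassium channel, had 7637, 7652 and 7084 and 16, 5 and 3 counts (log2 difference -8.83 ± 0.34, adjusted p = 7.01e-09), and Myzap, an intercalated disc protein, 17550, 18553 and 15551 and 142, 84 and 59 counts (log2 difference -6.49 ± 0.16, adjusted p = 6.83e-09). No quadriceps library came near a heart library for these 3 genes. Pam, the enzyme that amidates peptide hormones, had counts of 26906, 24425 and 18351 in heart and of 508, 454 and 362 in quadriceps (log2 difference -4.67 ± 0.13, adjusted p = 1.11e-08). A few transcripts spread widely among the heart libraries. Baiap2l1 had counts of 4178, 455 and 3286 in heart 1, 2 and 3 and 30, 19 and 10 in quadriceps, and Cwc22 had 370, 2478 and 1120 and 212, 92 and 120. Heart 2 was the lowest for Baiap2l1 and the highest for Cwc22. The ribosomal RNA precursor Rn45s had counts of 37367, 63986 and 121967 in heart and of 14610, 16938 and 6519 in quadriceps.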
